A study of Mus musculus with 5 samples.

Results

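The genes of the respiratory chain and the ATP synthase were described in single-cell libraries of the oligodendrocyte (OL) lineage of the mouse corpus callosum. All row names of the deposited expression matrix that begin with mt-, Nduf, Uqcr, Cox4 to Cox8, Atp5 or Sdha to Sdhd were taken, which gave 102 of 11733 genes. Of these, 13 are encoded by the mitochondrial genome and 89 by nuclear genes. The nuclear genes comprise 36 subunits of complex I, 4 of complex II, 8 of complex III, 12 of complex IV and 15 of complex V, and 14 assembly or accessory factors. The rule reads gene names and no measured value, and it was set with earlier results of these data known.

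The respiratory chain passes electrons from NADH and succinate to oxygen through complexes I to IV and pumps protons across the inner mitochondrial membrane, and complex V, the ATP synthase, uses that gradient to make ATP. Mitochondrial DNA encodes core subunits of every complex except complex II, and all other subunits are made in the cytosol and imported. In the OL lineage, precursor cells (OPC) depend on oxidative phosphorylation while they differentiate and begin to make myelin, and mature oligodendrocytes can live on glycolysis and pass lactate to axons.

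The cells came from corpus callosum of P60 mice (mixed CBA and C57BL/6 background, both sexes) of the line Emx1::Cre-Sox10::Cre-GFP-STOP-TdTom, whose longer name puts LoxP before GFP. Tissue of 2 mice was pooled and sorted by reporter into a TdTom+ sample (dorsally derived cells) and a GFP+ sample (ventrally derived cells), so both groups share all alleles and are divided by reporter. There was 1 library per origin, so no test between origins was made, and the cells of a library are not replicates. The authors' 12 cell labels run from OPC through committed precursors and newly formed cells (COP/NFOL) and myelin-forming cells (MFOL1, MFOL2, MOL2/MFOL) to 7 labels of mature oligodendrocytes (MOL1, MOL2a, MOL2b, MOL2/4, MOL4-5/6, MOL6a, MOL6b). The labels were made by clustering these cells, so differences between labels are a description without a test. The 3 spinal cord samples of the series were not analysed here.

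The TdTom+ library held 7129294 UMIs (unique molecular identifiers, each a counted RNA molecule) in 1901 cells and the GFP+ library 3584940 UMIs in 952 cells, with medians of 3340 and 3307 UMIs per cell. Just 1 cell barcode occurred in both libraries. Levels are UMIs summed over cells per 1000000 UMIs (CPM), with 95% exact Poisson intervals, and ratios are log2 ratios of CPM with exact intervals. All intervals cover counting error only, not differences between mice, sorts or libraries. The OPC label held 10750.4 CPM of its 6 precursor markers, against 11.2 to 1125 CPM in the other labels, and the COP/NFOL label 12586 CPM of its 7 markers, against 548 to 2219 CPM elsewhere. The 6 MFOL markers did not separate the MFOL from the MOL labels, with 58759.7, 40082 and 49362 CPM in MFOL1, MFOL2 and MOL2/MFOL, 36599 to 57066 CPM in the 7 MOL labels and 1597 CPM in OPC. MOL2/4 had the highest level of these markers among the MOL labels, above MFOL2 and close to MFOL1. The 9 MOL markers had 31676, 30381 and 28087 CPM in the former 3 labels, 26239.7 to 41589 CPM in the MOL labels and 1759 CPM in OPC, so the names MFOL and MOL are used here as the authors' labels.

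The 102 genes made up 3.66% of all UMIs. The 13 mitochondrial genes gave 148945 UMIs, or 1.39% of all UMIs, and the 89 nuclear genes 243086 UMIs, or 2.27%. The authors had left out cells with 5% or more mitochondrial UMIs, and the highest share in a deposited cell was 3.88%, so the mitochondrial sum had been used to choose the cells. A mean of at least 50 CPM over all cells was reached by 82 of the 102 genes, 75 of them nuclear, and the counts of genes below are among these 82.

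The mitochondrial mRNAs differed in count by orders of magnitude. Each library is a set of 3′ tags, so 1 UMI stands for 1 molecule and no division by length was made. mt-Cytb, the mitochondrial subunit of complex III, had 48552 UMIs in all cells. mt-Nd1, mt-Nd4 and mt-Nd2, core subunits of complex I, had 44192, 27309 and 16631 UMIs. Together mt-Cytb, mt-Nd1 and mt-Nd4 held 80.6% of the mitochondrial UMIs. The other complex I subunits were lower, with 3677 UMIs for mt-Nd5, 1764 for mt-Nd3, 292 for mt-Nd6 and 0 for mt-Nd4l.

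Next to mt-Nd4l and mt-Nd6, 2 of the 3 mitochondrial subunits of complex IV and both of complex V had the fewest UMIs. mt-Co1 had 6320 UMIs, whereas mt-Co2 and mt-Co3, the other mitochondrial subunits of complex IV, had 43 and 58. mt-Atp6 had 106 UMIs and mt-Atp8 1 UMI. The 2 libraries gave the same picture, with 30 and 13 UMIs of mt-Co2, 32 and 26 of mt-Co3, and 76 and 30 of mt-Atp6 in TdTom+ and GFP+ cells. These levels of mt-Co2, mt-Co3, mt-Atp6, mt-Atp8, mt-Nd6 and mt-Nd4l were under the limit of 50 CPM. The 22 annotated mitochondrial tRNAs and 2 rRNAs are not rows of the matrix.

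The mouse nuclear genome (GRCm38, the build the submitters' notes name as mm10, with GENCODE annotation) holds pseudogenes that are copies of mitochondrial DNA, and the sequences below show what such a copy looks like beside an mRNA. On chromosome 1, minus strand, 7 annotated pseudogenes lie at chr1:24611535-24616197, and with those on other chromosomes 12 annotated pseudogenes share a 60-base stretch with a mitochondrial mRNA. None of them is a row of the matrix. For each mRNA, 60 bases that end 15 bases before its 3′ end are given 5′ to 3′, beside the most similar stretch of a copy, with capitals where mRNA and copy differ.
mt-Co2, chrM:7622-7681, plus strand: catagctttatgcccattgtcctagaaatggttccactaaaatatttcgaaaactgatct
copy Gm28661, within chr1:24614885-24615565, minus strand: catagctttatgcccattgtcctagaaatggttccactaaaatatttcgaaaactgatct
mt-Nd2, chrM:4877-4936, plus strand: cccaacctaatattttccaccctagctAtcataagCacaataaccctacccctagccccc
copy Gm13339, within chr2:22590024-22590533, minus strand: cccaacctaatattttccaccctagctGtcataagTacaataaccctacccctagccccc
mt-Cytb, chrM:15214-15273, plus strand: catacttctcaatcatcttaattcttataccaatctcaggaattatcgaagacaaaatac
The mt-Co2 stretch was identical in its copy, the mt-Nd2 stretch differed at 2 positions, and no annotated copy of the mt-Cytb stretch was found.

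The share of 60-base windows of an mRNA that occur unchanged in an annotated copy was set beside its count. Over the last 300 bases, where 3′ tags fall, this share was 100% for mt-Co1 and mt-Co2, 99.6% for mt-Co3, 98.8% for mt-Atp6 and mt-Nd3, and 98.7% for mt-Nd4l. These 6 mRNAs had 0 to 6320 UMIs. It was 29.1% for mt-Nd2 and 0% for mt-Nd1, mt-Nd4, mt-Nd5, mt-Nd6, mt-Cytb and mt-Atp8, and these 7 mRNAs had 1 to 48552 UMIs. Over its whole length mt-Co1 had 46.5% of its windows in a copy and mt-Nd4 61.9%. mt-Atp8 had no window in a copy and 1 UMI, and it lies on a shared transcript with mt-Atp6, as mt-Nd4l does with mt-Nd4. How reads with more than 1 place in the genome were counted is not given in the sources used here, and the part of the copies in these counts was not tested.

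**Figure D1:**
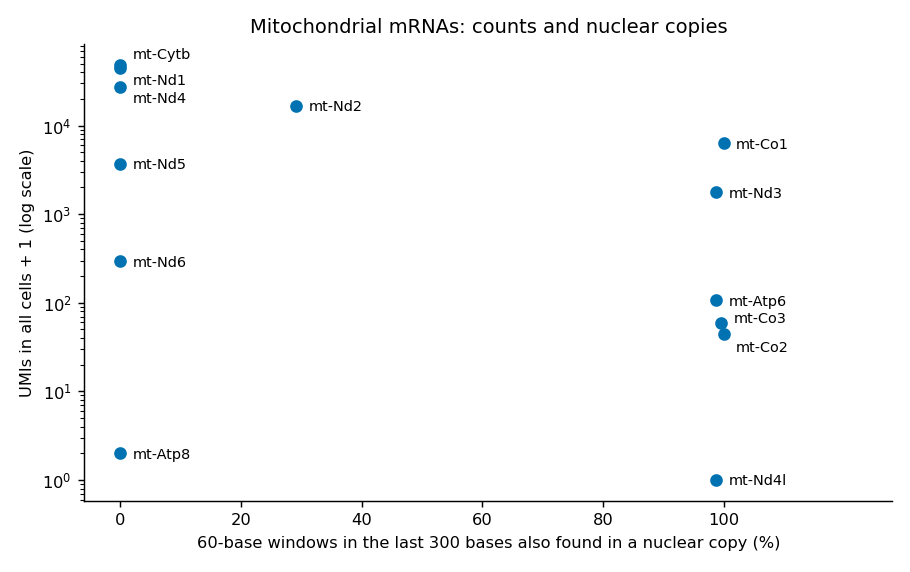
UMIs of each mitochondrial mRNA in all cells, plus 1, on a log scale against the share of 60-base windows in its last 300 bases that also occur in an annotated nuclear copy. The 6 mRNAs at the right have 98.7% to 100% of their end windows in a copy and 0 to 6320 UMIs, and mt-Cytb and mt-Nd1, with 0%, have 48552 and 44192.

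Among nuclear subunits, the levels of the most and least counted member of each complex were far apart. In complex I these were Ndufa3, an accessory subunit, at 596 CPM and Ndufa9, another accessory subunit, at 33.2 CPM. In complex II, succinate dehydrogenase, the iron-sulfur subunit Sdhb stood at 128.3 CPM and the membrane anchor Sdhd at 54.6 CPM. Complex III ranged from 79.1 CPM (Uqcrc2, a core protein) to 459.9 CPM (Uqcr11, a small subunit). Complex IV ranged from 12.5 CPM (Cox6b2) to 1221 CPM (Cox6c), and complex V from 9.89 CPM (Atp5g2) to 529 CPM (Atp5h). The 10 most counted nuclear genes held 33.6% of the nuclear UMIs.

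Where a subunit has tissue isoforms, 1 isoform made up most of the count. Cox4i1 had a level of 1044 CPM, Cox6a1 747 CPM, Cox8a 805 CPM and Cox7a2 584 CPM, and the muscle or lung isoforms Cox4i2, Cox6a2, Cox8b and Cox7a1 are not rows of the matrix. Cox7a2l, a relative of Cox7a2 that joins complexes III and IV, had 213.5 CPM. Cox6b1 had 564 CPM and its testis isoform Cox6b2 12.5 CPM. Ndufa4, counted here with complex IV, had 559.9 CPM, and Ndufa4l2 is not a row. The c subunit of the ATP synthase rotor, made from 3 genes whose mature proteins are alike, came mainly from Atp5g1 (329.9 CPM) and Atp5g3 (142 CPM), with 9.89 CPM of Atp5g2. In all, 9 annotated protein-coding genes whose names fit the rule are not rows.

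The 2 origins had nearly the same levels of these genes. The nuclear genes summed to 22717 CPM in TdTom+ and 22629.9 CPM in GFP+ cells, a log2 ratio of 0.0056 with an interval of -0.0066 to 0.018. The mitochondrial genes summed to 13774 CPM in TdTom+ and 14156 CPM in GFP+ cells, a log2 ratio of -0.039 with an interval of -0.055 to -0.024. That difference was 0.973-fold, and it was -0.015 on the log2 scale when both libraries were given the same label composition. Assembly factors had 639 and 629.9 CPM.

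By gene, a log2 ratio of 0.2 in size was passed by 5 of the 82 genes. Ndufs5, an accessory subunit of complex I, had 169 and 146 CPM in TdTom+ and GFP+ cells (log2 ratio 0.20). Atp5l, subunit g of the ATP synthase, had 69.4 and 50.5 CPM (0.45). mt-Nd3, whose end windows lie almost wholly in nuclear copies, had 173 and 148 CPM (0.22). Ndufb4, an accessory subunit of complex I, had 102 and 117 CPM (-0.20) and Ndufv2, a core subunit, 116 and 134 CPM (-0.20). In TdTom+ cells 5.62% of all 2955 genes of at least 50 CPM were past this fold upward and 4.4% downward, so the 3 higher and 2 lower genes among 82 were no larger a share than that of all genes. With a filter of 200 CPM 0 members passed it.

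Within most labels the 2 libraries were also close. For the nuclear sum the interval of the TdTom+ over GFP+ ratio held 0 in 8 of 12 labels, lay above 0 in OPC and MOL2/4 and below 0 in COP/NFOL and MOL2/MFOL. For the mitochondrial sum it held 0 in 10 labels and lay below 0 in COP/NFOL and MOL1. The largest of these ratios were those of COP/NFOL, -0.60 for the nuclear and -0.65 for the mitochondrial sum on the log2 scale, from 11 TdTom+ and 8 GFP+ cells. In the 5 and 3 of these cells with 3000 genes or fewer, the mitochondrial sum was 13913 and 14880.4 CPM and the nuclear sum 20712 and 30577 CPM, so the mitochondrial difference was smaller without the cells above that limit.

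Across the 12 labels, the nuclear and the mitochondrial genes took different orders. Under scaling to total UMIs, the nuclear sum over both libraries was highest in OPC, with 29098 CPM in TdTom+ (interval 28255 to 29959.9) and 26961 CPM in GFP+ cells (26002 to 27948). In TdTom+ cells no other label was higher, and in GFP+ cells COP/NFOL, with 8 cells, was at 32769 CPM, against 21677 CPM in the 11 TdTom+ cells of that label. With TMM factors, over all genes or over genes of at least 50 CPM, MOL2a was highest instead, and OPC over MOL turned from a log2 ratio of 0.32 to -0.37 and -0.15. The nuclear sum was lowest in MOL2/4, also with either TMM, with 16347 CPM (15766 to 16944) and 14845 CPM (14338 to 15365). In MFOL1, MFOL2, MOL1, MOL2/MFOL, MOL2a, MOL2b, MOL4-5/6, MOL6a and MOL6b it lay between 21005 and 25158 CPM in either library. Many neighbours in this order had overlapping intervals, such as MOL2b, MOL6b and MOL1 in TdTom+ cells at 22027, 22044 and 22001 CPM. MFOL2 held 381 CPM of 6 microglial markers, against 0 to 2.02 CPM elsewhere, and the part of such cells was not tested.

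The mitochondrial sum took another order. It was highest in MOL2/4, with 20745 CPM in TdTom+ and 20129 CPM in GFP+ cells, followed by MOL6b with 17483 and 17943 CPM and MOL4-5/6 with 14784 and 15167 CPM. It was low in MOL2/MFOL, with 10942 and 10818 CPM, and in MOL2a, with 11254 and 11151 CPM. OPC stood at 12666 and 11819 CPM, and COP/NFOL at 8608 and 13473 CPM, or 13913 and 14880.4 CPM in its 8 cells with 3000 genes or fewer. The ratio of mitochondrial to nuclear UMIs was 1.31 in MOL2/4 over both libraries, 0.801 in MOL6b, and from 0.405 (COP/NFOL, with all its cells) to 0.677 in the other 10 labels. Across the 12 labels the correlation of both sums was -0.51 in TdTom+ and -0.62 in GFP+ cells, and -0.054 and -0.3 over the 11 labels without MOL2/4. Both sums share the denominator of total UMIs, so these are descriptions.

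**Figure D2:**
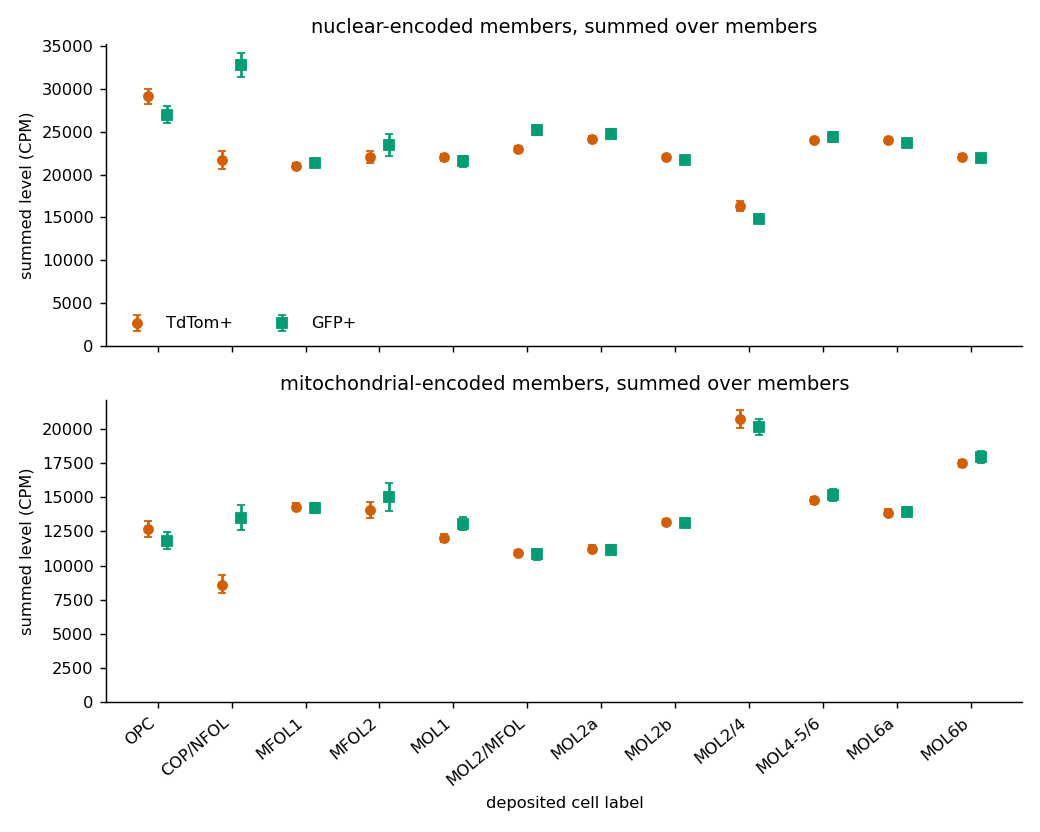
Summed level in CPM of the 89 nuclear-encoded (top) and 13 mitochondrial-encoded genes (bottom) in each of the 12 labels, with TdTom+ cells as orange circles, GFP+ cells as green squares and bars for 95% exact Poisson intervals. In CPM OPC is high and MOL2/4 low in the nuclear sum (with TMM factors MOL2a is highest), MOL2/4 and MOL6b are high in the mitochondrial sum, and the COP/NFOL points of the 2 libraries lie apart.

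Single cells of a label spread widely around these means. In MOL2/4 the 10th and 90th percentiles of the mitochondrial level per cell were 14389.9 and 28743 CPM in TdTom+ and 13655 and 28957 CPM in GFP+ cells. In MOL2a they were 7826 and 16189 CPM in TdTom+ and 7874 and 16045 CPM in GFP+ cells. Over 21 groups of at least 30 cells with the same label and library, the correlation of nuclear and mitochondrial levels over cells was weak, from -0.095 to 0.244 with a median of 0.075. The nuclear level and the summed level of 77 cytosolic ribosomal protein genes had correlations from -0.027 to 0.664 with a median of 0.324. The nuclear level and that of Malat1, a nuclear non-coding RNA, had negative correlations in all 21 groups, from -0.63 to -0.25 with a median of -0.41, and the mitochondrial level and Malat1 had correlations from -0.26 to 0.26 with a median of -0.095. Over the 12 labels, the mitochondrial sum and Malat1 had correlations of 0.74 in TdTom+ and 0.68 in GFP+ cells, and 0.46 and 0.38 without MOL2/4. These levels share the denominator of total UMIs, of which Malat1 is a large part, and the part of RNA quality was not tested. Cells of a group share a library and differ in depth, so these are descriptions.

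As a share of UMIs, OPC held more nuclear and less mitochondrial RNA of this pathway than the mature labels together. The nuclear sum over MOL had a log2 ratio of 0.35 (interval 0.31 to 0.40) in TdTom+ and 0.28 (0.23 to 0.34) in GFP+ cells, but with edgeR's TMM factors in place of total UMIs it was -0.37 over both libraries. TMM moved the ratios of the summed libraries by -0.69. The median of the 75 nuclear genes was above that of all 2955 genes by 0.31 under total UMIs. A TMM factor shifts all genes of a library alike, so the 0.31 with TMM could hardly differ and is no support. Without a filter on low genes this gap was 0.0026, and with a filter of 200 CPM it was 0.59. The mitochondrial sum had a log2 ratio of -0.16 (-0.23 to -0.10) and -0.30 (-0.38 to -0.22), and -0.91 with TMM over both. By complex, the nuclear sums over both libraries stood at log2 ratios of 0.30 for complex I, 0.40 for II, 0.25 for III, 0.29 for IV and 0.44 for V.

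Of the 75 nuclear genes, 18 had a log2 ratio of at least 0.5 in OPC over MOL in both libraries and 0 had one of -0.5 or less. Over all genes these shares were 20.8% and 25.1%. The 18 comprised 7 subunits of complex I, 2 of complex III, 4 of complex IV and 5 of complex V. The median log2 ratio of the nuclear genes was 0.41 and 0.21 in TdTom+ and GFP+ cells, against 0.016 and 0.036 over all genes. With TMM factors 0 of the 75 were higher and 27 lower by this fold, and 49.1% of all genes were lower. The directions that follow are those of CPM.

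Cox5a, a subunit on the matrix side of complex IV, had 490.1 and 188 CPM in OPC and MOL of the TdTom+ library, and 308 and 179 CPM in the GFP+ library (log2 ratio 1.16 over both, interval 0.87 to 1.45). Ndufa4 had 1245 and 542 CPM in TdTom+ and 1214 and 583 CPM in GFP+ cells (1.15, 0.98 to 1.31). Uqcrb, a small subunit of complex III, had 593 and 267 CPM, and 489 and 247 CPM (1.08, 0.83 to 1.32). OPC were above MOL for each of these genes in either library under CPM. Their ratios averaged over the 2 libraries were 1.08, 1.13 and 1.07, and with TMM 0.34, 0.39 and 0.33. Ndufs4, an accessory subunit of complex I, had 264 and 140.4 CPM, and 308 and 131 CPM (1.04, 0.69 to 1.38). Ndufs3, a core subunit of complex I, had 116 and 56.0 CPM, and 109 and 53.7 CPM (1.02, 0.45 to 1.57).

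Of the catalytic head of the ATP synthase, 3 subunits were among the 18. Atp5b, the beta subunit, had 323 and 201 CPM in TdTom+ and 371 and 196 CPM in GFP+ cells. The alpha subunit Atp5a1 had 277 and 168 CPM, and 281 and 149 CPM, and the gamma subunit Atp5c1 252 and 158 CPM, and 272 and 170.4 CPM. Each of the 3 was thus above MOL in both libraries. The delta and epsilon subunits, Atp5d and Atp5e, did not pass the fold, with log2 ratios of 0.30 and 0.36 in TdTom+ and -0.17 and 0.15 in GFP+ cells. Cox4i1 had 987 and 1032 CPM, and 924 and 1057 CPM. Ndufa3 had 464 and 612 CPM, and 353 and 596 CPM, which put it lowest in OPC of the 11 labels other than COP/NFOL. Of the 75 nuclear genes 50 were above 0 and 11 below 0 in both libraries, against 41.7% and 39.5% of all genes. Their highest level was in OPC for 42 among these 11 labels, as it was for 33.8% of all genes.

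**Figure D3:**
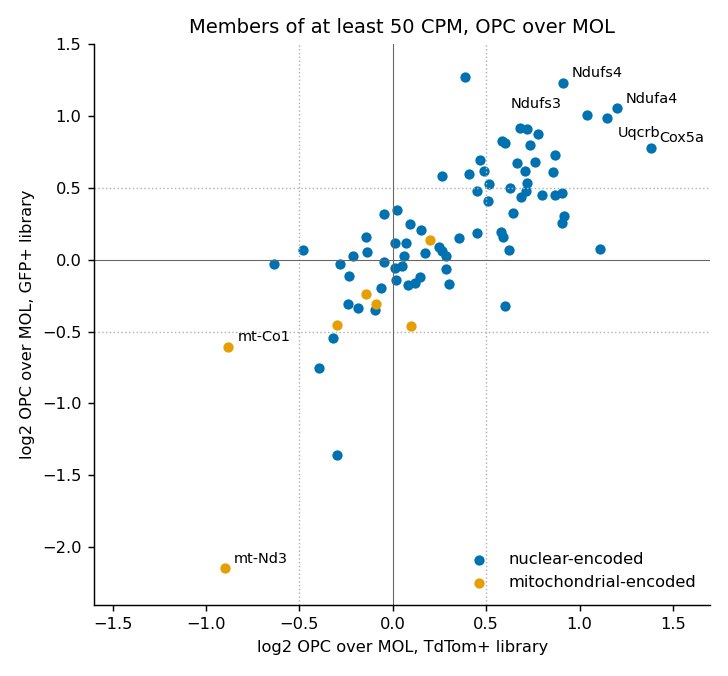
Log2 ratio of OPC over MOL in the TdTom+ library (x axis) and the GFP+ library (y axis) for each gene of at least 50 CPM, nuclear genes in blue and mitochondrial genes in orange, with dotted lines at 0.5 and -0.5. The 18 nuclear genes in the upper right corner include Cox5a, Ndufa4, Uqcrb, Ndufs4 and Ndufs3, and mt-Co1 and mt-Nd3 lie in the lower left corner.

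Among the 7 mitochondrial mRNAs of at least 50 CPM, mt-Co1 and mt-Nd3 were lower in OPC past the fold. They are also those of the 7 whose end windows lie almost wholly in nuclear copies, 100% and 98.8% against 0% to 29.1% in the other 5, so their counts are uncertain and the part of the copies in these ratios was not tested. mt-Co1, the catalytic subunit of complex IV, had 335 and 618 CPM in OPC and MOL of the TdTom+ library, and 389 and 593 CPM in the GFP+ library (log2 ratio -0.77, interval -1.08 to -0.48). mt-Nd3 had 96.7 and 181 CPM, and 36.2 and 164 CPM (-1.28, -2.03 to -0.64). mt-Cytb and mt-Nd1 had smaller ratios of -0.36 and -0.18, and mt-Nd2 stood at 0.17 with 1812 and 1582 CPM in TdTom+ and 1694 and 1543 CPM in GFP+ cells. The ratios of the mitochondrial mRNAs were thus unequal.

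Some markers of other cells moved with the OPC label. The 6 astrocyte markers summed to 955 and 869 CPM in OPC of the TdTom+ and GFP+ libraries and 207 and 197 CPM in MOL. Of these, 4 had UMIs in OPC, led by the glutamate transporters Slc1a2 and Slc1a3, and Gfap and Gja1 were at 0. All 4 neuronal markers present had UMIs, with 929 and 1177 CPM in OPC and 55.7 and 72.6 CPM in MOL, mostly Meg3. Microglial and endothelial markers were at 0 in OPC. The part of such cells in the OPC levels was not tested.

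Related gene lists were read in the same comparison, with the same fold and the same background. Of 42 carriers, regulators and assembly factors outside the rule, 39 are rows and 18 reached 50 CPM, and 7 of these were higher in OPC and 2 lower. The higher genes were Cox20, Slc25a5, Atpif1, Cox19, Vdac3, Vdac1 and Uqcc2, among them an ADP/ATP carrier (Slc25a5), the inhibitor of ATP hydrolysis by complex V (Atpif1) and outer membrane channels (Vdac1, Vdac3). Surf1 and Cox17, complex IV assembly factors, were lower. In the citrate cycle 5 of 17 genes reached the limit and Suclg1 was higher. In glycolysis and lactate use 7 of 19 reached it, with Eno1, Tpi1, Ldhb and Pkm higher and Gpi1 lower. Of 41 mitochondrial ribosomal protein genes 12 were higher and 1 lower, with a median log2 ratio of 0.41 and 0.42 in TdTom+ and GFP+ cells. Of 76 cytosolic ribosomal protein genes 4 were higher and 8 lower, with medians of -0.20 and -0.092.

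In COP/NFOL, 13 of the 75 nuclear genes were higher than in MOL past the fold in both libraries and 0 lower. Over all genes these shares were 16.5% and 21.9%, so the 13 were close to the share of all genes. The largest were Atp5e, the epsilon subunit of complex V, with 780.2 and 484 CPM in TdTom+ and 1585 and 481 CPM in GFP+ cells, and Atp5b with 364 and 201 CPM, and 598 and 196 CPM. Next came Sdhaf1, an assembly factor of complex II, with 117 and 67.1 CPM, and 194 and 61.6 CPM. Ndufaf2, an assembly factor of complex I, had 169 and 80.5 CPM, and 146 and 72.2 CPM. mt-Nd3, whose end windows lie almost wholly in nuclear copies, was lower, with 65.0 and 181 CPM, and 48.5 and 164 CPM. This label held 19 cells with medians of 8215 and 8212 UMIs, the deepest of all labels, and 11 of the 19 had more than 3000 genes, the limit the authors state.

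MFOL1, the myelin-forming label, had 0 nuclear and 0 mitochondrial genes past the fold over MOL in either direction, beside 4.06% of all genes upward and 7.11% downward. Its nuclear sum was 21005 and 21287 CPM and its mitochondrial sum 14319 and 14213 CPM. In log2 ratios over MOL the nuclear sum stood at -0.12 and -0.057, and the median of all genes at -0.10 and -0.058.

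Among mature labels, MOL2/4 stood apart for both groups of genes, in opposite directions. Over the other 6 MOL labels its nuclear sum had a log2 ratio of -0.49 (interval -0.55 to -0.44) in TdTom+ and -0.62 (-0.67 to -0.57) in GFP+ cells. Its mitochondrial sum had 0.57 (0.52 to 0.62) and 0.51 (0.47 to 0.56). Of the 75 nuclear genes 35 were lower past the fold in both libraries and 1 was higher, and of the 7 mitochondrial mRNAs 3 were higher and 0 lower. Over all genes 26.5% were lower and 10.4% higher, and with TMM factors from genes of at least 50 CPM these shares were 17.2% and 16.9%, and 29 nuclear genes were lower and 8 higher. The median nuclear log2 ratio was -0.54 and -0.72, against -0.22 and -0.29 over all genes.

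Complexes differed within MOL2/4. Over both libraries the nuclear sum of complex III had a log2 ratio of -1.01, that of complex V -0.65, of complex IV -0.63 and of complex I -0.39, whereas complex II stood at 0.23 (interval -0.0085 to 0.47). In counts, 5 of 8 nuclear genes of complex III were lower, 7 of 11 of complex IV, 8 of 14 of complex V, 13 of 34 of complex I, 2 of 4 assembly factors and 0 of 4 of complex II. Over all genes 26.5% were lower, and the 0 of 4 of complex II rests on few genes. Sdha, the flavoprotein of succinate dehydrogenase, had 115 and 87.3 CPM in MOL2/4 and the other MOL labels of TdTom+ cells, and 124 and 89.0 CPM in GFP+ cells.

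The lowest ratios were those of small subunits. Uqcrq, a small subunit of complex III, had 153 and 434 CPM in MOL2/4 and the other MOL labels of the TdTom+ library, and 142 and 474 CPM in the GFP+ library (log2 ratio -1.6, interval -2.0 to -1.23). Atp5e had 203 and 494 CPM, and 137 and 512 CPM (-1.58, -1.95 to -1.23). Atp5g3, a source of the c subunit of complex V, had 32.9 and 145 CPM, and 59.5 and 138 CPM (-1.57, -2.32 to -0.94). MOL2/4 was below the other labels in both libraries for each of them. Cox7b and Cox6b1, small subunits of complex IV, had log2 ratios of -1.52 and -1.48, with 93.1 and 258 CPM and 203 and 556 CPM in TdTom+ cells and 87.0 and 264 CPM and 202 and 589 CPM in GFP+ cells.

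Atp5f1, subunit b of the stalk of the ATP synthase, was the 1 nuclear gene that was higher. It had 318 and 197 CPM in TdTom+ and 329.7 and 202 CPM in GFP+ cells (log2 ratio 0.71, interval 0.44 to 0.97). Some other subunits were also above 0 without passing the fold in both libraries, such as Atp5b with 323 and 196 CPM, and 252 and 191 CPM. Ndufs7, a core subunit of complex I, had 438 and 243 CPM, and 343 and 247 CPM. Uqcrc1, a core protein of complex III, had 159 and 71.2 CPM in TdTom+ and 87.0 and 76.6 CPM in GFP+ cells. In all, 14 nuclear genes were above 0 and 55 below 0 in both libraries, against 26.7% and 53.4% of all genes. The lowest level of 44 of the 75 was in MOL2/4 among the 11 labels other than COP/NFOL, as it was for 32.6% of all genes.

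**Figure D4:**
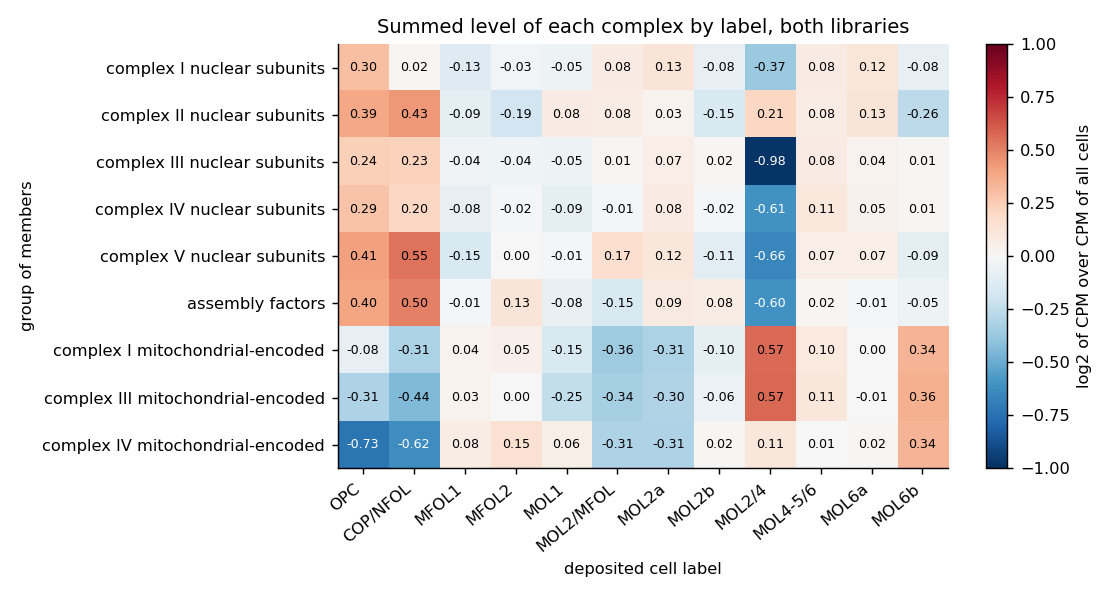
Log2 ratio of the summed CPM in each label over that of all cells, with both libraries summed, for the nuclear subunits of each complex, the assembly factors and the mitochondrial genes of complexes I, III and IV. Red is above and blue below all cells, and the column of MOL2/4 is blue for nuclear complexes III (-0.98), V (-0.66) and IV (-0.61) and red for mitochondrial complexes I (0.57) and III (0.57).

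The mitochondrial mRNAs past the fold in MOL2/4 were mt-Nd1, mt-Nd3 and mt-Cytb. mt-Nd1 had 6933 and 4104 CPM in TdTom+ and 6736 and 4165 CPM in GFP+ cells (log2 ratio 0.73, interval 0.67 to 0.78). mt-Cytb had 6813 and 4557 CPM, and 6689.8 and 4621 CPM (0.56, 0.50 to 0.62). mt-Nd3 had 356 and 175 CPM, and 243 and 157 CPM (0.80, 0.52 to 1.08). Its end windows lie almost wholly in nuclear copies (98.8%), so its count is uncertain and the part of the copies was not tested. mt-Nd5 did not pass the fold in both libraries, mt-Nd4 stood at 0.48, mt-Nd2 at 0.15 and mt-Co1 at 0.065, so here too the ratios were unequal.

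Among nuclear genes the ratio in MOL2/4 went with transcript length. Of 38 nuclear genes with a median annotated transcript length under 700 bases, 24 were lower past the fold, or 63.2%, and of 37 genes of 700 bases or more 11 were lower, or 29.7%. Of the other genes of at least 50 CPM, 46.9% of 277 under 700 bases and 23.2% of 2489 longer ones were lower. Over the 75 nuclear genes, Spearman's rho of length and ratio was 0.36 in TdTom+ and 0.40 in GFP+ cells, and 0.13 and 0.18 over 2766 other genes. The relation was also computed in other labels. In MOL1 over the other MOL labels rho was 0.39 and 0.30 over the nuclear genes and -0.064 and -0.11 over other genes. In MOL6a it was 0.20 and 0.30, against -0.19 and -0.15. Over the nuclear genes it was 0.022 and 0.048 in OPC and -0.13 and -0.17 in MFOL1. With the longest annotated transcript in place of the median, rho over the nuclear genes was 0.37 and 0.42 in MOL2/4, 0.38 and 0.12 in MOL1 and 0.17 and 0.38 in MOL6a, so the GFP+ value of MOL1 depended on this choice. No difference between labels in this relation was tested. All 4 genes of complex II and Atp5f1 are among the longer genes, and these correlations over genes are a description.

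**Figure D5:**
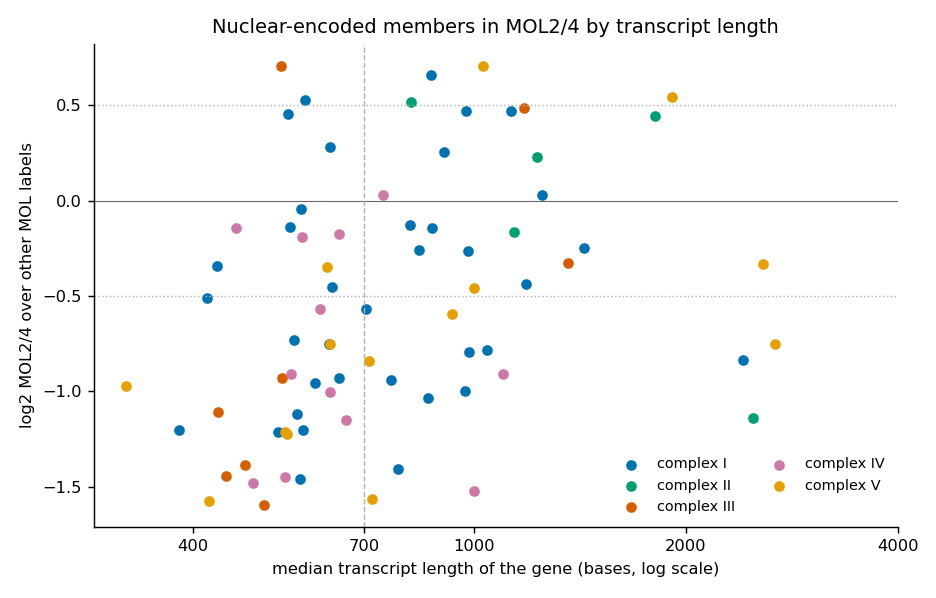
Log2 ratio of MOL2/4 over the other 6 MOL labels (y axis, both libraries) against the median transcript length of each of the 75 nuclear genes of at least 50 CPM (x axis, bases, log scale), coloured by complex, with dotted lines at 0.5 and -0.5 and a dashed line at 700 bases. Left of the dashed line 24 of 38 genes were called lower in both libraries, and right of it 11 of 37.

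Other RNAs moved with the MOL2/4 label. The 77 cytosolic ribosomal protein genes summed to 27875 and 22277 CPM in TdTom+ and GFP+ cells of MOL2/4 and 70844 and 70042 CPM in the other MOL labels, and 75 of 76 were lower past the fold. Malat1 took 207651 and 227157 CPM in MOL2/4 against 140889.8 and 142001 CPM. Cells of this label had medians of 1229.5 and 1317 detected genes and 2757.5 and 3312 UMIs. Of 41 mitochondrial ribosomal protein genes 21 were lower and 0 higher, with medians of -0.66 and -0.91. Of the 18 carriers and assembly factors 8 were lower, among them the electron carrier Cycs, and Vdac3 was higher. In glycolysis Ldhb was higher and Tpi1 lower, and in the citrate cycle Ogdh was lower. The neuronal markers summed to 181 and 174 CPM in MOL2/4 and 51.1 and 63.4 CPM in the other MOL labels, all of it in MOL2/4 from Tubb3, with Snap25, Syt1 and Meg3 at 0. The astrocyte markers summed to 263 and 179 CPM in MOL2/4, with 5 of 6 above 0, and 205 and 198 CPM in the other MOL labels. Microglial markers were at 0 in MOL2/4, and endothelial markers were at 0 and 9.16 CPM. The part of these RNAs in the ratios was not tested, and without Malat1 in the denominator the nuclear and mitochondrial sums had log2 ratios of -0.43 and 0.68.

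In MOL1 2 and in MOL6a 4 of the 75 nuclear genes were higher than in the other MOL labels in both libraries, and 0 were lower. Over all genes 2.98% were higher and 1.59% lower in MOL1, and 3.59% and 3.62% in MOL6a, so these counts were close to the shares of all genes. Ndufv1, the core subunit of complex I that takes electrons from NADH, had 109 and 55.9 CPM in MOL1 and the other labels of TdTom+ cells, and 124 and 49.9 CPM in GFP+ cells (log2 ratio 1.06, interval 0.70 to 1.44). Uqcrc1, a core protein of complex III, had 112 and 70.6 CPM, and 133 and 72.8 CPM (0.72, 0.37 to 1.07). Both genes were also among the 4 of MOL6a, where Ndufv1 had 83.4 and 55.2 CPM, and 79.5 and 50.3 CPM, and Uqcrc1 98.3 and 68.5 CPM, and 113 and 69.6 CPM.

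MOL6a also had more Ndufs3, with 86.3 and 48.7 CPM in TdTom+ and 81.6 and 47.5 CPM in GFP+ cells (log2 ratio 0.80, interval 0.50 to 1.12). Sdhb had 167 and 113 CPM, and 153 and 103 CPM (0.56, 0.35 to 0.78). Of the carriers, the ADP/ATP carrier Slc25a4 was higher in both MOL1 and MOL6a, with Vdac2 in MOL1 and Slc25a5 in MOL6a. In glycolysis Gapdh and Ldhb were higher in MOL1, and Tpi1 and Aldoa higher and Ldhb lower in MOL6a. The 2 labels share 5 of the 6 labels they were compared with.

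The start sites of the nuclear genes were searched for short cores of motifs of factors known to drive respiratory genes. RefSeq windows of 300 bases, 250 before to 50 after the start (GRCm38.p6), were matched by symbol for 74 of the 89 genes and for 2311 of the genes of at least 50 CPM, and both strands were searched. The NRF1 core GCGCATGC was found in 12 of the 74, or 16.2%, against 6.27% of the 2311. The ESRRA core TCAAGGTCA was found in 2 of the 74, or 2.7%, against 7 of the 2311, or 0.303%. Those 7 include the same 2 genes, Atp5g3 and Sdhd. The YY1 core AAGATGGC was found in 10.8% against 6.15%, and the CREB core TGACGTCA in 5.41% against 3.81%. The ETS core CCGGAAGT was found in 6.76% against 8.83%. Of 57 cytosolic ribosomal protein genes 3.51% held the NRF1 core and 19.3% the ETS core. A match says only that these letters are in the window.

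The windows of Uqcr11 and Ndufa11 are shown because they held 2 different cores each, in capitals, Uqcr11 an ETS and an NRF1 core and Ndufa11 a CREB and an NRF1 core that overlaps its own reverse complement. Uqcr11, a small subunit of complex III, was lower in MOL2/4 (197 and 465 CPM in TdTom+ and 151 and 479.8 CPM in GFP+ cells). Ndufa11, an accessory subunit of complex I, was higher in OPC (271 and 159.6 CPM, and 281 and 175 CPM).
Uqcr11, chr10:80406772-80407071, minus strand: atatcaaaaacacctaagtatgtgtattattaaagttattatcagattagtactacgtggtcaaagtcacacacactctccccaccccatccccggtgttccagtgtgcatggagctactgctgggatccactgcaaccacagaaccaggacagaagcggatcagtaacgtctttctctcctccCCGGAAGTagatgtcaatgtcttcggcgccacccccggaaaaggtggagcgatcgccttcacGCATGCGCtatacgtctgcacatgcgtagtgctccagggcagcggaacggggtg
Ndufa11, chr17:56717512-56717811, plus strand: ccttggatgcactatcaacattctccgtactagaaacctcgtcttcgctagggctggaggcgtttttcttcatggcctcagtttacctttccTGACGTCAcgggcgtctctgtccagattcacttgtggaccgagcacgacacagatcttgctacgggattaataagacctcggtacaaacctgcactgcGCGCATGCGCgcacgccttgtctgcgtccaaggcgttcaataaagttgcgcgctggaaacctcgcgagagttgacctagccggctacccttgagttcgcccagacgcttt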

How the data were processed

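Single-cell libraries (10x 3′ version 2) of FACS-sorted cells were aligned by the authors to mm10, with Cell Ranger 2.1.1 named in the submitters' notes and STAR in the study's methods. The authors state that they kept cells of 200 to 3000 genes whose UMIs were less than 5% mitochondrial, and 38 deposited cells lie above 3000 genes. Each value of the deposited matrix is a signal, the UMI count of a gene that the authors divided by the total of its cell. Each cell's smallest value above 0 was taken as 1 UMI, and 100% of values were then whole to within 0.01, so these recovered UMI counts were used in place of the deposited values. A further 35 columns of the deposited tables were not used.

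UMIs were summed over the cells of a label and library and given as CPM (Python 3.11.15, scipy 1.17.1). Gene ratios are log2 of CPM plus 1 for genes of at least 50 CPM over all cells. A gene was called past the fold at 0.2 between origins, or at 0.5 in both libraries between labels. MOL is the 7 mature labels without MOL2/MFOL, and a mature label was compared with the other 6. Genes past the fold are given for OPC, COP/NFOL, MFOL1, MOL1, MOL2/4 and MOL6a and not for the other labels. Named were all mitochondrial mRNAs, the highest and lowest nuclear subunit of each complex, tissue isoforms, and up to 5 members each way past a fold, and further genes that were named were chosen after their values were seen. Doublets were not removed. Members and lists were chosen with earlier results of these data known. In simulated counts of 2955 genes with 200 changed, 98% (log2 change 0.4, origins), 83% (1, OPC) and 87% (1, MOL2/4) of the changed genes were called, as were 4.36%, 2.80% and 1.09% of the unchanged ones. These counts held Poisson error only and no differences between cells, sorts or libraries, so the shares are not error rates of the real comparisons. Alternatives were edgeR 4.0.16 TMM factors, other denominators, filters, pseudocounts and folds, thinning (224 of 2853 cells left out), and each library alone. Settings without Malat1, TMM over genes of at least 50 CPM and all settings of MOL2/4 were added after seeing the data. Nuclear genes' own pseudogenes were not examined, so counts of genes with near-identical copies are uncertain.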

Additional observations from a re-analysis of the deposited data

Results flagged for a closer look

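The summed level of the nuclear respiratory genes in COP/NFOL over MOL went opposite ways in the 2 libraries. The log2 ratio was -0.072 in the 11 TdTom+ cells and 0.565 in the 8 GFP+ cells, from levels of 21677 and 32769 CPM. With 1 library per origin this difference was not tested. The mitochondrial sum was also lower in the TdTom+ cells, at 8608 against 13473 CPM. In the 5 TdTom+ and 3 GFP+ cells with 3000 genes or fewer, the log2 ratios of the nuclear sum were -0.14 (interval -0.28 to 0.0050) and 0.47 (0.34 to 0.60), and those of the mitochondrial sum -0.033 and 0.023. The part of depth, of doublets and of how far these cells had differentiated was not tested.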

How the results depend on the processing

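No paired analysis was possible because each origin had a single library. For the nuclear sum of TdTom+ over GFP+ cells, the log2 ratio of 0.0056 became 0.019 in cells with 3000 genes or fewer and -0.0076 with the same label composition in both libraries, and the mitochondrial ratio of -0.039 became -0.015 with the latter. The count of 5 members past the fold became 14 without a filter, 0 with a filter of 200 CPM, 2 with a pseudocount of 10 CPM, 3 with TMM factors, 3 in cells with 3000 genes or fewer and 0 at a fold of 0.5.

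The nuclear sum of OPC over MOL (log2 ratio 0.32) reversed to -0.37 with TMM and to -0.15 with TMM over genes of at least 50 CPM, which moved every ratio of these sums by -0.69 and -0.47. It was 0.28 as a mean over cells, 0.22 without structural myelin genes in the denominator, 0.25 without Malat1 and 0.28 in the GFP+ library alone. The mitochondrial sum (-0.22) was -0.32 without myelin genes, -0.91 and -0.69 with either TMM, -0.29 in cells thinned to 2400 UMIs, -0.29 without Malat1, and -0.16 and -0.30 in the TdTom+ and GFP+ libraries alone. The count of 20 members became 32 without a filter, 7 with a filter of 200 CPM and 2 at a fold of 1. With TMM it became 34, of which 27 nuclear and 7 mitochondrial genes were all lower, and 2 were shared with the 20. With TMM over genes of at least 50 CPM it was 17, with 2 nuclear genes higher and 10 nuclear and 5 mitochondrial genes lower, and 4 were shared.

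For MOL2/4 over the other MOL labels, the nuclear sum (-0.56) was -0.48 and -0.32 with either TMM, -0.43 without Malat1, and -0.49 and -0.62 in the libraries alone. The mitochondrial sum (0.54) was 0.58 without myelin genes, 0.63 and 0.78 with either TMM and 0.68 without Malat1. The count of 39 members became 11 at a fold of 1. Between the highest and the lowest label, the nuclear log2 ratio of 0.86 was 0.81 as a mean over cells, 0.73 without myelin genes, 0.66 without Malat1, 1.14 in the GFP+ library alone (COP/NFOL highest), and 0.49 and 0.38 with either TMM, where MOL2a was highest. The mitochondrial one of 0.92 was 1.27 in the TdTom+ library alone, 1.12 without Malat1, and 1.46 and 1.38 with either TMM. COP/NFOL was the lowest label for the 0.92 and the 1.27, with 8608 CPM in its 11 TdTom+ cells. In the 5 of these cells with 3000 genes or fewer the level was 13913 CPM. MOL2/4 was the lowest label of the nuclear sum under each of these settings. Of 21 named members, 7 no longer passed the fold with TMM, 4 with TMM over genes of at least 50 CPM, 3 with a pseudocount of 10 CPM, 2 in cells with 3000 genes or fewer and 1 without Malat1. These 21 changed sign under none of these settings, but they were picked for the largest ratios each way, so this is no support. They include 5 of the 18 nuclear genes higher in OPC. With TMM 0 nuclear genes were higher past the fold in OPC and 27 were lower. The causes were not tested.

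With 1 library per origin, intervals hold counting error and not differences between mice. Levels are shares of UMIs, so a label's ratios depend on what else its cells express, and amounts per cell were not measured. The labels were made from the same cells and genes.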
